A study of Mus musculus with 4 samples.

Results

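The genes described here are the 4 mouse FOXO transcription factor genes, Foxo1, Foxo3, Foxo4 and Foxo6, and 6 genes of the nutrient-starvation response that FOXO factors are known to switch on or that act on the same pathway: Irs1, Irs2, Pik3ip1, Sesn3, Ccng2 and Txnip. They were picked by gene symbol, at a time when earlier results of these data were known, and are 10 of the 22186 genes listed. Expression was measured by RNA sequencing in 4 libraries of MC38, a mouse colon carcinoma line that had been stably transfected with TetOn-CXCL14, a construct from which doxycycline induces the secreted chemokine CXCL14. The treated group was 2 cultures given doxycycline at 1 µg/mL for 72 h, starting at 20% confluence. The control group was 2 cultures of the same transfected line given the same volume of the solvent, PBS, for the same time. The treatment notes describe these parallel cultures, while the design text speaks of cells taken before and after induction. Every culture thus carried the construct, and no library had doxycycline without it, so the antibiotic and the chemokine cannot be told apart. Whether the line was 1 clone is not stated in the labels. Levels are in TPM, transcript abundances scaled to transcript length and to the library total, so that they can be compared between genes.

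FOXO factors are the main nuclear outputs of insulin and growth factor signalling. When receptors signal through the IRS adaptors, PI3 kinase and the kinase AKT, FOXO proteins are phosphorylated, held in the cytoplasm by 14-3-3 proteins and kept from their target genes. When nutrients or growth factors run low, FOXO proteins enter the nucleus and switch on genes that slow the cell cycle, restrain growth signalling, reshape metabolism and, through Irs2 and other receptor-proximal genes, sensitise the cell to insulin again. Because that regulation acts largely on the protein, RNA levels of the factors do not report their activity, which was not measured here.

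The promoters of 8 of the 10 genes were at hand in RefSeq (build GRCm38.p6; each window runs from 250 bases before to 50 bases after the annotated start, and Foxo4 and Foxo6 were not matched). Both strands were searched for GTAAACA, the core of the FOXO binding element, and CAAAACA, the core of the insulin response element, through which FOXO factors are known to act, and for the E-box CACGTG, the site of MYC, MLX and related factors. GTAAACA stood in Txnip alone among the 8, and in 3.65% of all 32851 windows. CAAAACA stood in Irs1, Irs2 and Ccng2, against 6.28% of all windows, and CACGTG in Irs1 and Irs2, against 7.15%. A pair of E-boxes 5 bases apart, the carbohydrate response element in its strict form, was in 0 of the 32851 windows. Looser forms were not searched for, so this does not show that Txnip or any other gene lacks the element. These matches are descriptions of the sequence, not evidence of binding. The stretches are shown, 5′ to 3′ on the strand of the gene and with the matched letters in capitals, because the 2 insulin receptor substrate genes share an arrangement in them. They lie at chr1:82291527-82291571 (minus strand, Irs1), chr8:11008943-11008990 (minus strand, Irs2), chr5:93267540-93267580 (plus strand, Ccng2) and chr3:96557819-96557859 (plus strand, Txnip).
Irs1: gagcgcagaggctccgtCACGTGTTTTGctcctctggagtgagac
Irs2: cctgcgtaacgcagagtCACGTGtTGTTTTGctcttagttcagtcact
Ccng2: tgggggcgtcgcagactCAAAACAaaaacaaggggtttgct
Txnip: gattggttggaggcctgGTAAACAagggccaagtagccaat
In Irs1 the E-box begins 115 bases before the start and overlaps by 2 bases the insulin response element core, which is read on the opposite strand as TGTTTTG. In Irs2 the same elements stand in the same order, with the E-box 44 bases before the start and 1 base between them. A further CAAAACA lies 32 bases before the start of Irs1, and that of Ccng2 lies 16 bases before its start. The FOXO core of Txnip lies 121 bases before the start.

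The 4 libraries had between 14330 and 14678 genes above 0. Cxcl14 itself stood at 385 and 391 TPM after doxycycline, against 27.3 and 29.2 TPM in controls, so the induction followed the labels. Defining markers of colon epithelium were close to absent: 0 of 11 reached a mean of 1 TPM, 4 (Cdx1, Cdx2, Cdh1 and Krt19) were listed at 0 in all libraries, and their summed level was 0.145 to 0.391 TPM after doxycycline and 0.368 to 0.469 TPM in controls. Summed fibroblast markers were 823 to 909 TPM after doxycycline and 4053 to 4205 TPM in controls, mostly Dcn. Of the 5 tested, 4 fell at an adjusted p under 0.05 (limma), as did 35.4% of all tested genes. Col1a1 did not pass, with 3.39 and 2.02 TPM after doxycycline and 2.43 and 2.14 TPM in controls (log2 fold change 0.15). Col1a2, Lum and Fap were at or near 0. Macrophage markers summed to 7.48 to 9.06 TPM after doxycycline and 10.3 to 12.1 TPM in controls, and 3 of them (Laptm5, C1qa and C1qc) were at 0 throughout. Endothelial markers summed to 0.151 to 0.197 TPM after doxycycline and 0.584 to 0.710 TPM in controls. The part of the fibroblast marker shift in the results below was not tested. In bulk RNA, fewer cells that express a gene and less of its RNA per cell cannot be told apart.

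All 10 genes were lower after doxycycline, from Ccng2, which was left with 19.4% of its control mean, to Txnip, which kept 80.9%. Each of the 10 passed the 1 TPM minimum for testing, and each was called lower at a Benjamini-Hochberg adjusted p under 0.05 (limma across all tested genes, on log2(TPM + 1)). This count is read against a broad background: of 11359 genes tested, 35.4% were called lower and 29% higher. In all 10 genes both treated libraries lay under both control libraries, which held for 45% of all tested genes. A fall of at least 1 on the log2 scale was called for 5 of the 10, Ccng2, Sesn3, Foxo3, Irs1 and Foxo6, and for 7.76% of all tested genes. The median log2 fold change of the 10 genes was -0.87, beside -0.04 for all genes tested. Under quantile normalization the medians were -0.56 for the 10 genes and 0.05 for all, and on log2(FPKM + 1) they were -0.61 and -0.03. In both of these settings Irs1 and Foxo6 fell by less than 1, which leaves 3 of the 10 past that size. Foxo6 also fell by less than 1 under median-of-ratios scaling (-0.97) and without control replicate 2. Without DOX replicate 2, Irs1 and Foxo6 both fell by less than 1, which again leaves 3 of the 10 past that size. The share of all tested genes past that size was not computed under these alternatives. Of the 10 calls, 2 depended on a setting: those of Irs2 and Foxo1, described with those genes.

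**Figure D1:**
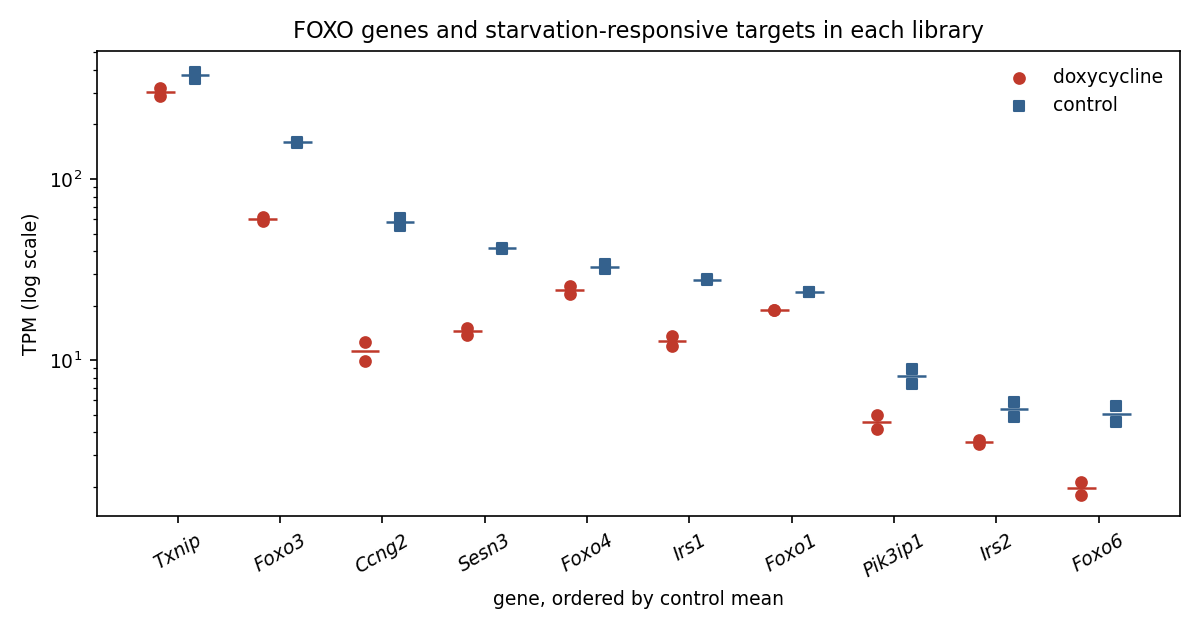
TPM of the 10 genes on a log axis, with 1 point per library (circles, doxycycline, n = 2; squares, control, n = 2) and a line at each group mean. In every gene both treated libraries lie below both controls, by the widest gap in Ccng2 (means 11.2 and 57.9 TPM) and by a narrow one in Txnip (302 and 374 TPM) and Foxo1 (19.0 and 23.8 TPM).

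Foxo3 was the most abundant of the factors and fell the most. This factor is known for inducing genes of cell death, stress resistance and autophagy. It stood at 61.9 and 58.9 TPM after doxycycline, against 158 and 161 TPM in controls. The libraries of a group differed by a few TPM, and the groups were far apart. The log2 fold change was -1.38 (SE 0.06, limma adjusted p = 1.8e-07), and 3.96% of tested genes had a lower log2 fold change.

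Foxo6, whose expression is best known from brain, was the least abundant factor. Its level was 2.14 and 1.80 TPM after doxycycline and 4.55 and 5.57 TPM in controls. The groups did not overlap, at levels where a few reads can move a value. The log2 fold change was -1.03 (SE 0.15, limma adjusted p = 2.5e-04). On this scale the added 1 TPM shrinks the change of so low a gene, whose mean was left at 38.9% of control; on log2(FPKM + 1) the difference of Foxo6 was -0.68, and the call was kept.

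Foxo1, the factor best known for insulin-regulated gene expression in liver, and Foxo4, the X-linked member of the family, fell far less. Foxo1 had 19.0 TPM in each of the 2 treated libraries, against 23.7 and 23.9 TPM in the control libraries. Foxo4 had 25.6 and 23.2 TPM after doxycycline, against 33.8 and 31.7 TPM in controls. Neither gene's groups overlapped, and both kept about the same part of their control mean, 79.9% for Foxo1 and 74.5% for Foxo4. The log2 fold change of Foxo1 was -0.31 (SE 0.08, limma adjusted p = 0.0067) and that of Foxo4 was -0.41 (SE 0.08, limma adjusted p = 0.0019). The call of Foxo1 was lost under quantile normalization (log2 fold change -0.17, limma adjusted p = 0.081; over all alternatives 0.0057 to 0.081). The exons of Foxo1 overlap those of a gene on the other strand in GENCODE M21, as do those of Irs1, Irs2, Pik3ip1 and Txnip. None of these partner genes is listed in the table. No source used here says whether counting used strand, and without strand reads of a partner cannot be told apart from those of these 5 genes.

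Together the 4 FOXO genes summed to 109 and 103 TPM after doxycycline, against 220 and 222 TPM in controls. The treated mean, 106 ± 4.07 TPM, was 47.9% of the control mean, 221 ± 1.47 TPM (SD, n = 2 each). Foxo3 made up 85.9% of the difference in the summed means. Its share of the sum was 56.9% and 57.3% after doxycycline, against 71.8% and 72.4% in controls. Foxo1 made up 17.5% and 18.5% of the sum after doxycycline and 10.8% in both controls. Foxo4 made up 23.6% and 22.5% after doxycycline and 15.4% and 14.3% in controls. The share of Foxo6 was 1.97% and 1.75% after doxycycline and 2.07% and 2.51% in controls.

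Ratios within a library do not depend on how libraries are scaled. The ratio of Foxo1 to Foxo3 was 0.308 and 0.323 after doxycycline, against 0.151 and 0.149 in controls, a difference of 1.07 on the log2 scale. The ratio of Foxo4 to Foxo3 was 0.414 and 0.393 after doxycycline, against 0.214 and 0.197 in controls, a log2 difference of 0.97. Foxo3 thus fell relative to Foxo1 and Foxo4 in each treated library. Foxo6, however, kept about the same part of its control mean as Foxo3, 38.9% against 38.0%. An exact two-sided permutation test of 2 against 2 libraries cannot go below p = 0.333, the value it gave for both ratios.

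**Figure D2:**
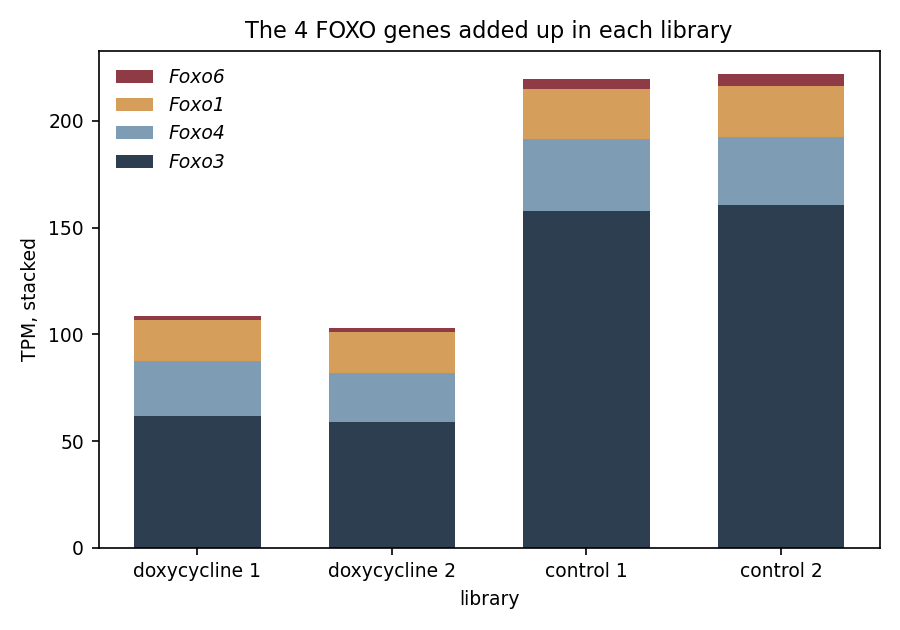
Stacked TPM of Foxo3, Foxo4, Foxo1 and Foxo6 in each of the 4 libraries (doxycycline 1 and 2, control 1 and 2). The treated columns reach 109 and 103 TPM and the control columns 220 and 222 TPM, and most of the difference is the Foxo3 segment.

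The insulin receptor substrates couple the insulin and IGF1 receptors to PI3 kinase. Irs1, the adaptor tied to growth signalling in many tissues, had 13.6 and 11.9 TPM after doxycycline, against 28.0 and 27.7 TPM in controls. The control libraries were within 1 TPM of each other and both treated libraries lay far below them. Its log2 fold change was -1.07 (SE 0.09, limma adjusted p = 8.6e-06). Irs2, the adaptor that FOXO factors induce in fasted liver, had 3.44 and 3.65 TPM after doxycycline, against 4.83 and 5.91 TPM in controls. Its groups did not overlap, but the controls differed from each other by about as much as the lower control stood above the treated libraries. The log2 fold change of Irs2 was -0.48 (SE 0.13, limma adjusted p = 0.011), a call that was lost without control replicate 2 (log2 fold change -0.36, limma adjusted p = 0.073) and under quantile normalization (-0.18, limma adjusted p = 0.25), with 0.0074 as the lowest adjusted p over all alternatives. Irs1 transcripts outnumbered those of Irs2 in all libraries, at a ratio of 3.96 and 3.27 after doxycycline, against 5.80 and 4.69 in controls. The log2 difference of this ratio was -0.53, and the exact two-sided permutation p was 0.333, the smallest this design allows.

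Pik3ip1 encodes a membrane protein that binds PI3 kinase and inhibits it. Its level was 4.19 and 4.97 TPM after doxycycline, against 8.89 and 7.38 TPM in controls. Both groups showed some spread but did not overlap. The log2 fold change was -0.71 (SE 0.13, limma adjusted p = 0.0013), and it was -0.43 under quantile normalization, where the call was kept (limma adjusted p = 0.025).

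Sesn3 encodes a sestrin, one of the proteins that restrain mTORC1, the growth-promoting kinase complex, when amino acids are short, and it is known as a FOXO target. It had 15.1 and 13.7 TPM after doxycycline, against 41.0 and 41.7 TPM in controls. The groups were well apart, and the log2 fold change of -1.46 (SE 0.08, limma adjusted p = 6.5e-07) was the second lowest of the 10. The other sestrin genes went opposite ways. Sesn1, known as a target of p53 and FOXO, fell to 26.6 and 22.6 TPM after doxycycline, against 109 and 128 TPM in controls (log2 fold change -2.22, limma adjusted p = 2.0e-07). Sesn2, known as a target of p53 and of ATF4, the factor of the amino acid starvation response, rose to 123 and 124 TPM after doxycycline, against 43.1 and 35.5 TPM in controls (log2 fold change 1.63, limma adjusted p = 5.4e-07). The most abundant sestrin was thus Sesn2 after doxycycline and Sesn1 in controls.

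Ccng2 encodes cyclin G2, an atypical cyclin that slows the cell cycle and that FOXO factors are known to induce. It fell the most of the 10 genes, to 9.85 and 12.6 TPM after doxycycline, against 55.0 and 60.7 TPM in controls. Both treated libraries lay far below either control. The log2 fold change was -2.28 (SE 0.11, limma adjusted p = 3.2e-07), and 1.04% of tested genes had a lower log2 fold change. Its paralogue Ccng1, known as a p53 target, did not pass the test, with 36.5 and 38.9 TPM after doxycycline and 32.7 and 39.7 TPM in controls (log2 fold change 0.06, limma adjusted p = 0.59). The groups of Ccng1 overlapped, and its sign turned without control replicate 1 (log2 fold change -0.07). Over the 4 libraries, the genes whose centred log2(TPM + 1) lay nearest to Ccng2 by Euclidean distance were Atp13a4 (0.136), Pde4b (0.143) and Il6 (0.15). For Pde4b and Il6 that likeness holds on log2(TPM + 1) only. The added 1 TPM shrinks the falls of Pde4b, to 0.930 and 1.11 TPM after doxycycline, against 8.40 and 9.41 TPM in controls, and of Il6, to 0.191 and 0.454 TPM after doxycycline, against 4.54 and 6.03 TPM in controls. Il6 was left with 6.10% of its control mean, Pde4b with 11.4%, Atp13a4 with 19.2% and Ccng2 with 19.4%.

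Txnip encodes an alpha-arrestin that binds thioredoxin, lowers glucose uptake and is induced by glucose through MondoA and MLX. It was the most abundant of the 10 genes and, with Foxo1, one of the least changed. It had 288 and 316 TPM after doxycycline, against 390 and 358 TPM in controls. The gap between the groups was small beside the levels, but they did not overlap. Its log2 fold change was -0.31 (SE 0.07, limma adjusted p = 0.0043), and 30.7% of tested genes had a lower one. Arrdc4, the alpha-arrestin usually induced along with Txnip, was listed at 0.0855 and 0 TPM after doxycycline and 0.0344 and 0 TPM in controls, so no ratio of the pair was formed. Arrdc3, an alpha-arrestin known for turning over membrane receptors, fell to 24.8 and 21.5 TPM after doxycycline, against 206 and 215 TPM in controls (log2 fold change -3.14, limma adjusted p = 8.6e-09). Mlxip, which encodes MondoA, fell slightly, to 35.0 and 33.9 TPM after doxycycline, against 42.1 and 41.6 TPM in controls (log2 fold change -0.27, limma adjusted p = 0.0066). Mlx did not pass the test (log2 fold change -0.03, limma adjusted p = 0.69, with the sign turned under median-of-ratios scaling and without DOX replicate 2), and Mlxipl was at or near 0 in all libraries.

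**Figure D3:**
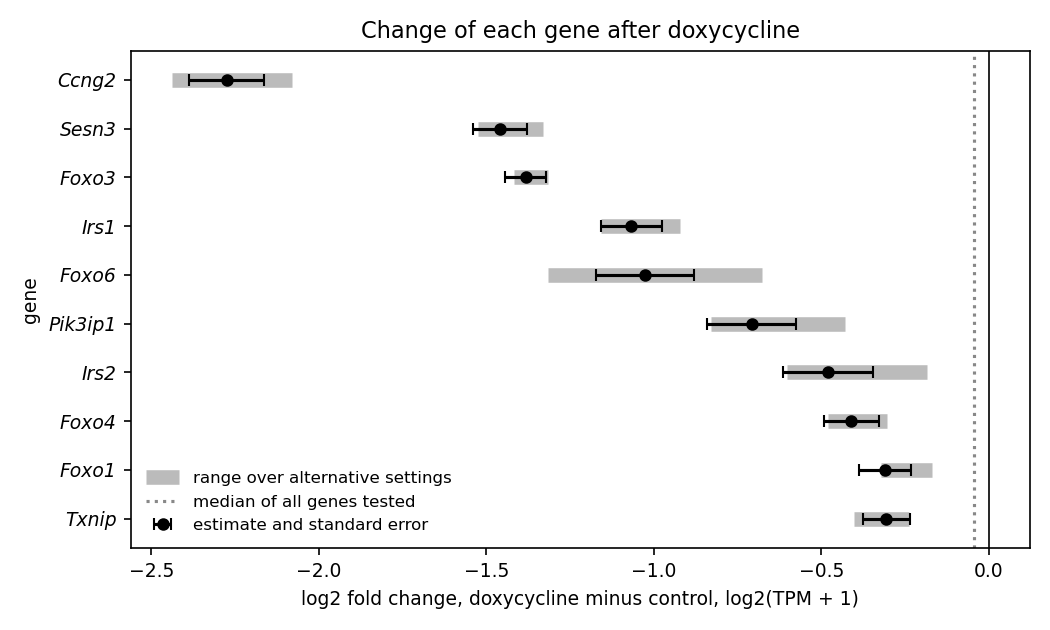
Log2 fold change of each gene, doxycycline minus control on log2(TPM + 1), with its standard error (points and whiskers) and its range over the 14 alternative settings (grey bars; 13 for Foxo6 and Irs2). The values run from -2.28 for Ccng2 to -0.31 for Txnip, left of the median of all tested genes at -0.04 (dotted line), and no range crosses 0.

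The order of the levels also shifted. After doxycycline it ran Txnip, Foxo3, Foxo4, Foxo1, Sesn3, Irs1, Ccng2, Pik3ip1, Irs2 and Foxo6, and of these neighbours only Irs1 and Ccng2 had overlapping libraries. In controls it ran Txnip, Foxo3, Ccng2, Sesn3, Foxo4, Irs1, Foxo1, Pik3ip1, Irs2 and Foxo6, and only Irs2 and Foxo6 overlapped. Ccng2 thus went to rank 7 after doxycycline, against rank 3 in controls, while Foxo1 stood at rank 4 after doxycycline and rank 7 in controls.

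Other genes known as FOXO targets mostly fell as well, with exceptions. Of 45 such genes, 36 were tested, of which 25 were lower and 6 higher at an adjusted p under 0.05 (limma), where 35.4% of all tested genes were lower and 29% higher, with a median log2 fold change of -0.79. On log2(TPM + 1) the largest changes were falls of Fbxo32, a ubiquitin ligase of muscle wasting, to 5.08 and 5.31 TPM after doxycycline, against 37.8 and 40.2 TPM in controls, and of Bnip3, a mitophagy receptor, to 37.2 and 38.5 TPM, against 210 and 216 TPM in controls. Among the genes of cell death, Bcl2l11, which encodes BIM, fell (log2 fold change -1.81), whereas Bbc3, which encodes PUMA and is also a p53 target, rose (0.62). The antioxidant genes Sod2 and Cat fell (-1.93 and -0.82) and Prdx3, which encodes a mitochondrial peroxidase, rose (0.66). Gadd45a, a stress-induced gene of growth arrest that ATF4 and p53 also induce, rose to 555 and 620 TPM after doxycycline, against 129 and 128 TPM in controls (2.18). Its paralogue Gadd45b fell (-2.01). The CDK inhibitor genes Cdkn1a and Cdkn1b fell (-0.42 and -0.80), as did Rbl2, which encodes the pocket protein p130 (-1.02). Pck1, G6pc and Igfbp1, which FOXO factors induce in fasted liver, were not informative, since they were listed at 0 in every library, as was Pdk4. Of the genes in this paragraph, all but Fbxo32, Bnip3 and Gadd45a were named after their values were seen.

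Genes that FOXO factors are known to repress did not move together. Of 6, 4 were tested, with 2 higher and 2 lower, beside 29% higher and 35.4% lower among all tested genes. With 4 tested genes, these counts cannot be told apart from those shares. Myc and Ccnd2, which encodes cyclin D2, rose (log2 fold change 1.74 and 1.10), and Ccnd1, which encodes cyclin D1, fell (-0.63). Srebf1, the lipogenic factor, had a log2 fold change of -0.20, a call lost in 7 of 14 alternatives (limma adjusted p 0.0078 to 0.22).

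The pathway that inactivates FOXO factors was lower in several of its parts. Of 33 genes of insulin, PI3 kinase and AKT signalling, 28 were tested, of which 17 fell and 3 rose (limma, adjusted p under 0.05), beside 35.4% lower and 29% higher among all tested genes, with a median log2 fold change of -0.39. The regulatory subunit gene Pik3r1 fell to 33.0 and 28.9 TPM after doxycycline, against 183 and 204 TPM in controls (log2 fold change -2.60), and the catalytic subunit gene Pik3cd fell to 4.60 and 5.12 TPM, against 31.2 and 31.7 TPM in controls (-2.47). Pik3r5, a regulatory subunit of the PI3 kinase that acts below G protein-coupled receptors, and Inpp4b, a phosphatase that opposes PI3 kinase, fell as well (-2.59 and -2.39). The size for Pik3r5, which had 0.623 and 0.551 TPM after doxycycline, against 8.15 and 9.03 TPM in controls, depends on the value added before the logarithm (-3.66 with 0.1 TPM and -1.65 on log2(FPKM + 1)). Akt1, which encodes an AKT kinase, had 306 and 299.9 TPM after doxycycline and 329 and 303 TPM in controls, with overlapping groups, and did not pass (-0.06, limma adjusted p = 0.43, with the sign turned under median-of-ratios scaling). Akt2 did not pass either (0.19, limma adjusted p = 0.063), though it did in 3 of 14 alternatives, with adjusted p from 0.012 to 0.33. Sgk1, which encodes a kinase that also phosphorylates FOXO proteins, fell (-1.95). Trib3, a pseudokinase that binds AKT and is an ATF4 target, rose (2.17). Sgk1 and Trib3 were named after their values were seen.

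Around mTORC1 the calls were about as frequent as among all genes. Of 46 genes of the mTOR complexes and of amino acid sensing, 44 were tested, of which 12 rose and 13 fell (limma), beside 29% higher and 35.4% lower among all tested genes, with a median log2 fold change of 0.03. Besides Sesn1, the amino acid sensor gene Castor2 and the mTOR inhibitor gene Deptor fell (-1.29 and -1.25). The highest log2 fold change on this list was that of Sesn2. The list shares Sesn1, Rictor and Eif4ebp1 with that of FOXO targets, so the 2 counts are not independent. The list of insulin, PI3 kinase and AKT signalling likewise shares Insr, which was not called, with that of FOXO targets.

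Among arrestins and the thioredoxin system, 3 of the 9 tested genes fell and 1 rose, beside 35.4% lower and 29% higher among all tested genes, so the share that fell was near the background. Besides Arrdc3, the beta-arrestin gene Arrb1 and Arrdc1 fell (log2 fold change -1.29 and -0.87). Txn1, which encodes the cytosolic thioredoxin that TXNIP binds, did not pass (0.05, limma adjusted p = 0.49), while Txn2, the mitochondrial thioredoxin gene, rose to 358 and 377 TPM after doxycycline, against 172 and 158 TPM in controls (1.15). Txn1 was named after its values were seen.

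**Figure D4:**
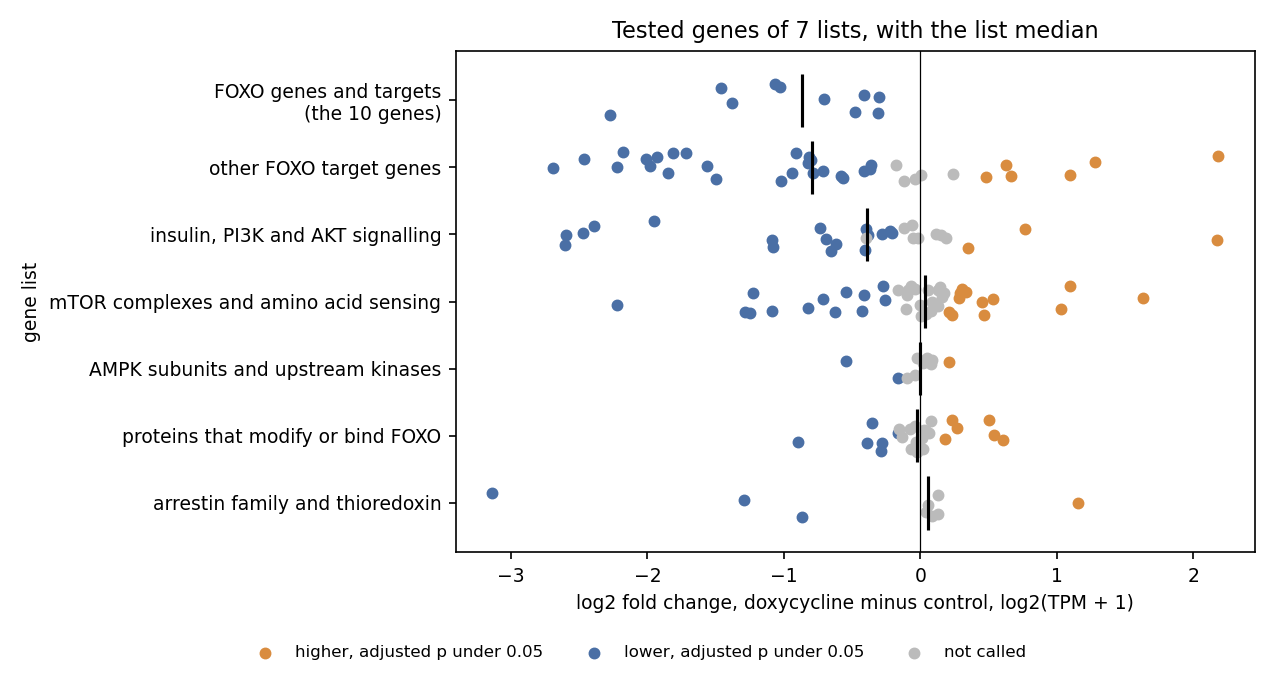
Log2 fold change, doxycycline minus control on log2(TPM + 1), of the tested genes of 7 lists (points; blue, called lower; orange, called higher; grey, not called) with the list's median (black line); vertical scatter within a list has no meaning. The medians are -0.87 for the 10 genes, -0.79 for other FOXO targets and -0.39 for insulin, PI3 kinase and AKT signalling, and lie between -0.03 and 0.05 for the remaining 4 lists shown. Lists with under 6 tested genes are not drawn, among them the genes FOXO factors repress (median 0.45).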

How the data were processed

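Per the file headers, the authors deposited TPM and, in a second table, FPKM for each gene symbol. Within a library the TPM were a constant multiple of the FPKM (3.08 to 3.14). The submitters' processing notes name mm39 as the build; the aligner, the quantifier and the gene models are not given in the sources used. No read counts were used here, so depth is unknown and no counting interval is given.

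The test was limma 3.58.1 in R 4.3.3 (lmFit, then eBayes with a mean-variance trend) on log2(TPM + 1), for genes whose 4 libraries averaged 1 TPM or more, 2 treated against 2 control libraries, two-sided, with Benjamini-Hochberg adjustment over all 11359 genes and calls under 0.05. The labels number the libraries alike in both groups without saying what a number shares, so no block was used. The design text calls the 2 samples of a group biological replicates and says no more, so p-values measure the spread between these samples. In limma each gene's variance is also drawn towards that of other genes of like level (6.98 prior against 2 residual degrees of freedom). The fit was also run on simulated data in which far fewer genes changed than were called here. That run therefore does not show how the fit behaves under so broad a shift. Members, gene lists, motifs and tests were chosen with earlier results of these data known. Named genes are the 10 members and their relatives, up to 4 called genes per list by size of change, the 3 nearest to Ccng2, and Cxcl14. Others are named after their values were seen. Overlaps came from GENCODE M21 exons and blastn 2.17.0 (97% identity, 100 bases). Promoters came from RefSeq, GRCm38.p6, a build other than that of the tables. A gene that the rule for named genes covers is not reported here.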

Additional observations from a re-analysis of the deposited data

How the results depend on the processing

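The 10 genes were recomputed under 14 alternatives: pseudocounts of 0.1 and 0.5, no filter, a mean of at least 5 TPM (which leaves out Foxo6 and Irs2), FPKM, median-of-ratios and quantile scaling, limma without its trend or with robust variances, a replicate block, and each library left out. Of 138 values, 135 kept their direction and call, 3 lost the call and 0 changed sign. Between 8 and 10 genes were called lower and 0 higher. The lost calls were Foxo1 (-0.17) and Irs2 (-0.18) under quantile normalization and Irs2 without control replicate 2, with Irs2 between -0.60 and -0.36 over the libraries left out. Where 1 library was left in a group it was assumed to vary like the other group. With the replicate block all 10 stayed lower, among 4114 genes called lower, and deviations of same-numbered libraries were uncorrelated (r = -0.005 across genes). Ratios between members were recomputed under 6 alternatives (FPKM, median-of-ratios scaling and each library left out) and kept their sign. Values that changed sign were Mlx (0.0364) and Akt1 (0.009) under median-of-ratios scaling, Mlx over the libraries left out (-0.0634 to 6e-04) and Ccng1 likewise (-0.0731 to 0.1965); none of these 3 genes was called. The cause was not tested. Counts of other lists, recomputed after the data were seen, moved by over 1.5 times for few-gene counts only: genes FOXO factors repress (1 lower against 2), AMPK (1 lower against 2; 0 or 2 higher against 1), PI3 kinase signalling (5 higher against 3 under median-of-ratios scaling) and arrestins (2 or 4 higher against 1). Without read counts, the precision of Foxo6, Irs2 and Pik3ip1, all under 10 TPM, rests on 2 libraries per group. Their standard errors also draw on the variances of other genes through limma.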

Other observations

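Genes for proteins that modify, bind or move FOXO factors are given beside all tested genes, of which 29% were higher and 35.4% lower. Of 26, 25 were tested, with 6 higher, 6 lower and 13 not called (limma, adjusted p under 0.05), and a median log2 fold change of -0.03. Among the tested genes the largest log2 fold change was that of Kat2b, an acetyltransferase, which fell to 39.2 and 39.3 TPM after doxycycline, against 74.0 and 74.3 TPM in controls (log2 fold change -0.90). Prmt1, an arginine methyltransferase, and Ywhag, a 14-3-3 protein, rose (0.60 and 0.54). Sfn, another 14-3-3 protein, had a log2 fold change of 0.51, a call lost in 4 of 14 alternatives (limma adjusted p 0.0011 to 0.16), among them without control replicate 2 (0.24). Sirt1, a deacetylase of FOXO proteins, had 32.7 and 33.9 TPM after doxycycline and 32.4 and 32.2 TPM in controls and did not pass (0.04, limma adjusted p = 0.62). Sirt1 was named after its values were seen.

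AMPK, the kinase that senses low energy and phosphorylates FOXO3, showed small differences. Of 10 tested genes of its subunits and upstream kinases, 1 was higher and 2 lower, beside 29% higher and 35.4% lower among all tested genes, with a median log2 fold change of -0.002. Prkag1, a regulatory subunit, fell to 106 and 107 TPM after doxycycline, against 157 and 155 TPM in controls (-0.55, limma adjusted p = 3.3e-05). The calls of Prkaa1 (-0.16) and Cab39 (0.21) were lost in 8 and in 3 of 14 alternatives.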
